A study of Caenorhabditis elegans with 2 samples.

Results

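Germ granule and germline stem cell regulator genes were examined as sites of OEF-1 recovery on chromatin in Caenorhabditis elegans. The set holds 47 genes, 22 for components of P granules and related germ granules and 25 for regulators of germline stem cells and of germline RNA. All 47 were found among the 19973 protein-coding genes of the nuclear chromosomes, and 43 of them lie on autosomes and 4 on X. The genes were taken by name and not by a measured value, but earlier results of these data were known when they were chosen. A gene was called bound when a peak summit, the point of highest signal in a peak, lay within 500 bp of its annotated 5' end.

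Chromatin immunoprecipitation followed by sequencing (ChIP-seq) had been done on whole hermaphrodites at the L4 larval stage, 52 h after synchronization as starved L1 larvae. There was 1 group of 2 samples, biological replicates 3 and 4, both of strain OP383 with genotype unc-119(tm4063) III; wgIs383. This strain carries the transgene wgIs383, which adds an oef-1 gene (F49E8.2) with a GFP-FLAG tag at the C-terminal end of its product, and DNA was recovered with an antibody against GFP. The animals therefore shared the unc-119 allele and the transgene, the lysate came from the whole body, and an untagged strain was not used here.

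P granules are cytoplasmic bodies of RNA and protein that sit at the nuclear pores of germ cells. PGL proteins form their scaffold, Vasa-like GLH helicases and LOTUS domain proteins join them, and the MEG proteins organise granules in the early embryo. At the distal end of the gonad, Notch signalling through GLP-1 keeps germ cells in the stem cell state by way of LST-1 and SYGL-1, which act with the PUF proteins FBF-1 and FBF-2 on target mRNAs. Proteins such as GLD-1 and the poly(A) polymerase GLD-2 promote entry into meiosis and control translation there.

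The sites below carry much of what follows and are shown as 101 bases of the WBcel235 (ce11) reference centred on the summit, each on the strand of the gene. The first 3 of the 5 are summits at bound 5' ends. The fourth lies upstream of mip-1 and ranked 1836 by signal, past the 1339 peaks of the authors' optimal list. The last lies past the 3' end of cgh-1. Capitals mark letters of the word GGCGCA, the word ACGCGC or the word GCGCCA on either strand, 6-mers that an earlier account of these same peaks named as frequent at summits.
pgl-3, chrV:4755546-4755646, plus strand: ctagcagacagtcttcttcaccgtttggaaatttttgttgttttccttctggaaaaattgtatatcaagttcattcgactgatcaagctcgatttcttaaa
znfx-1, chrII:9213191-9213291, plus strand: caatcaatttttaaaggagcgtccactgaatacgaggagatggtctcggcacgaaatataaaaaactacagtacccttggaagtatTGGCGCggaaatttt
atx-2, chrIII:10461292-10461392, plus strand: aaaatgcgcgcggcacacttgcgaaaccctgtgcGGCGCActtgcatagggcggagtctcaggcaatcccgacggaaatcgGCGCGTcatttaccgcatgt
mip-1, chrIII:4792745-4792845, plus strand: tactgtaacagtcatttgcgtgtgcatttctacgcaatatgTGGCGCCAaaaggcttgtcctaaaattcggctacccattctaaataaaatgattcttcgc
cgh-1 3' site, chrIII:7494964-7495064, minus strand: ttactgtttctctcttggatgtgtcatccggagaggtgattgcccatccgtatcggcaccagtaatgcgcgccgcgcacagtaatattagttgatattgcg

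The atx-2 window held the word GGCGCA, and it also held the word ACGCGC on the opposite strand. Of its bases 59.4% were G or C. The znfx-1 window held GCGCCA on the opposite strand. The mip-1 window held GCGCCA on both strands, in overlap. The pgl-3 window held none of the 3 and was 34.7% G or C, against a median of 44.6% over the 1318 nuclear optimal windows. At least 1 of the 3 words was present in 2 of the 5 windows of bound members and in 336 of all 1318 (25.5%). Among the 10 members described below whose best pooled summit ranked 1340 to 2678, 6 windows held one. Of all 1339 windows at those ranks, 17.6% did. From 250 bases before to 50 after the annotated 5' end, 14 of 47 members (29.8%) and 13.6% of all coding genes held one. Since the words were picked from these peaks, their presence is a description only.

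In the authors' optimal list, 5 of the 47 genes were bound (10.6%), against 772 of 19973 coding genes (3.87%). The bound genes were pgl-3, glh-2 and znfx-1 among the granule components (3 of 22, 13.6%) and atx-2 and sygl-1 among the stem cell and RNA regulators (2 of 25). All 5 were autosomal, which makes 5 of 43 autosomal members (11.6%) beside 4.43% of all autosomal genes. The optimal list held 1339 peaks, and these were the 1339 peaks of highest signal among 30000 pooled candidates, so a rank in one list is also the rank in the other. Signal is the authors' value, its scale is not stated, and it is compared below only within 1 list. No test was made of these shares, because the genes of a chosen list are not replicates.

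**Figure D1:**
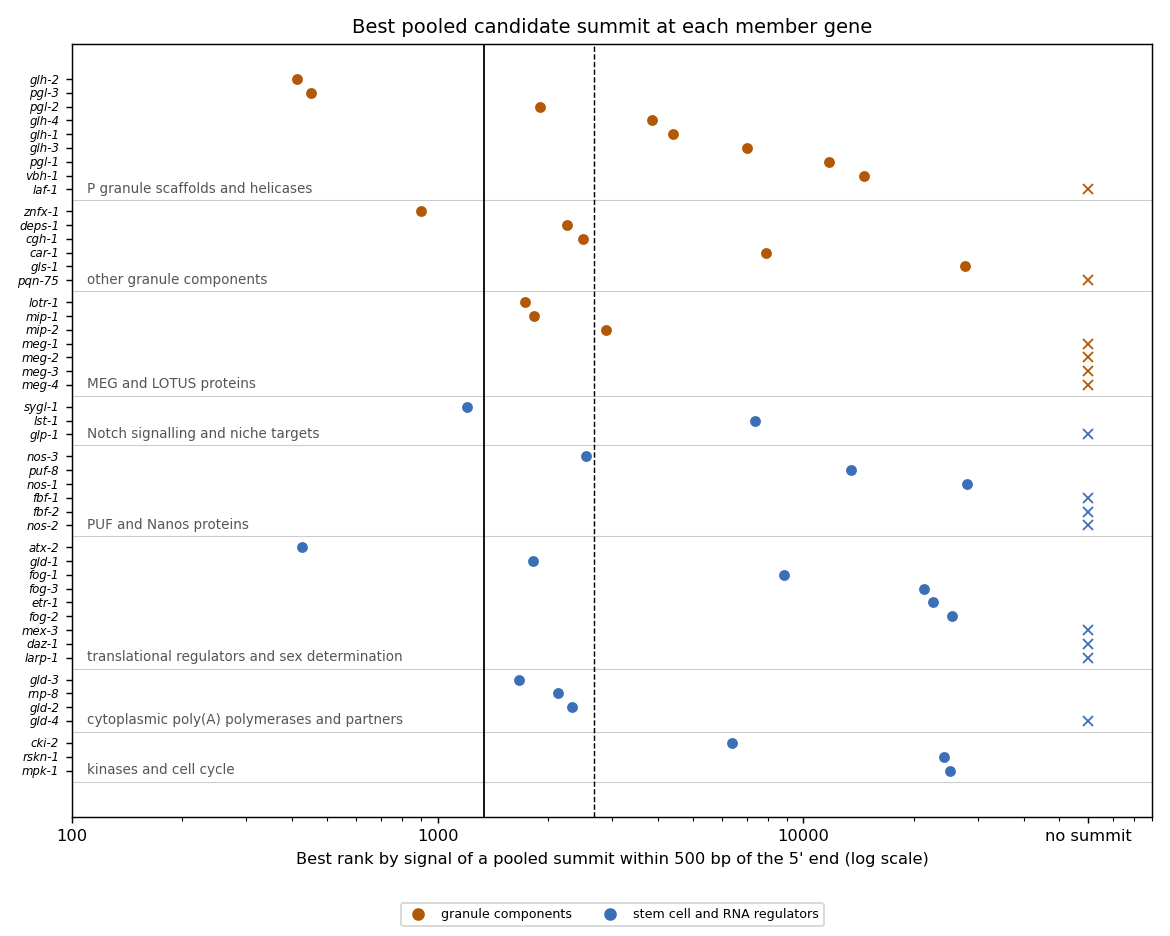
Rank by signal (log axis) of the strongest pooled summit within 500 bp of the 5' end of each of the 47 genes, grouped by role; crosses mark genes with no pooled summit there. The solid line is the end of the optimal list at rank 1339 and the dashed line is rank 2678: 5 genes lie left of the solid line and 10 between the lines.

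The P granule scaffold genes pgl-1, pgl-2 and pgl-3 differed in their 5' signal. At pgl-3, which encodes a self-associating scaffold protein, the summit lay 383 bp upstream of the 5' end in the optimal list, with a signal of 126 and rank 450 of 1339. In replicate 3 the summit was again 383 bp upstream, with a signal of 89.0 and rank 495. In replicate 4 it was 384 bp upstream, with a signal of 36.0 and rank 513. The position thus moved by 1 bp between the replicates, and the rank was close in both. The site lies between pgl-3 and hil-4, a linker histone gene on the same strand, and is 143 bp past the 3' end of hil-4 and 1283 bp from its 5' end. At pgl-2 the best pooled summit ranked 1911, with a signal of 59.2, and lay 209 bp downstream of the 5' end. At pgl-1 it ranked 11756, with a signal of 22.6, 36 bp upstream, in a window shared with the 5' end of him-3.

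Among the helicase genes, glh-2 was bound and its relatives were not. GLH proteins are DEAD-box helicases of the Vasa family that reside in P granules. The glh-2 summit lay 5 bp upstream of the 5' end with a signal of 130.3 and rank 413 in the optimal list, the best rank of any summit within 500 bp of the 5' end of a member. In replicate 3 the signal was 95.7, the rank 431 and the summit again 5 bp upstream. In replicate 4 the signal was 36.7, the rank 482 and the summit 3 bp downstream. Both replicates therefore placed it at the annotated start. It is the 1 bound 5' end here that shares its peak, because C55B7.11 starts 98 bp away on the opposite strand, with its 5' end 93 bp from the summit. The 2 genes cannot be told apart as the one the peak belongs to. Of the 635 optimal summits within 500 bp of a coding 5' end, 163 (25.7%) likewise lay near more than 1.

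The best pooled summits of glh-4, glh-1 and glh-3 ranked 3852, 4391 and 7017, and that of the helicase gene vbh-1 14682. The vbh-1 summit was nearest to the 5' end of mrpl-17 in all 3 candidate lists. No summit of any of the 3 candidate lists lay near the 5' end of laf-1, which encodes a DDX3-type helicase. The glh genes differed in how much of their surroundings is repeated elsewhere. Of the 31-base words within 500 bp of the 5' end, all occurred once in the genome at glh-3, 91.7% at glh-2, 72.0% at glh-1 and 47.8% at glh-4, the lowest share of the 47. In 38 of the 47 genes at least 95% of these words occurred once. How reads that match several places were treated is not given in the sources used here, and its part in these ranks was not tested.

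Among the remaining granule genes, znfx-1 was bound. Its product is a helicase that marks Z granules, bodies next to P granules that serve inheritance of small RNA states. The summit lay 417 bp upstream, with a signal of 91.1 and rank 901. In replicate 3 it was 428 bp upstream with a signal of 62.1 and rank 1047. In replicate 4 it was 399 bp upstream with a signal of 22.2 and rank 1594, outside the 1339 strongest peaks of that replicate. The site was therefore placed alike by both replicates and was weaker, relative to other peaks, in replicate 4. Like the pgl-3 site it follows a gene on the same strand, lying 141 bp past the 3' end of ZK1067.4.

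None of the 3 LOTUS domain genes was bound, and lotr-1 and mip-1 came nearest to the optimal list. The best pooled summit of lotr-1, whose product holds LOTUS and Tudor domains, ranked 1735 with a signal of 63.1, 136 bp upstream. That of mip-1, for a protein that binds MEG-3, ranked 1836 with a signal of 60.6, 291 bp upstream. That of its relative mip-2 ranked 2891 with a signal of 46.2, 64 bp upstream. The lowest signal in the optimal list was 74.0, so all 3 were weaker than every optimal peak. All 3 had a summit within 200 bp of the pooled one in both replicates, at rank 2557 and 1592 for lotr-1, 2106 and 1899 for mip-1 and 2056 and 20212 for mip-2 in replicates 3 and 4. The matched mip-2 summit in replicate 4 was thus weak, with a signal of 7.87. A stronger replicate 4 summit lay 289 bp downstream of the mip-2 5' end, at rank 2615 with a signal of 18.3. The pooled list had a second mip-2 summit 209 bp downstream, at rank 3586. The lotr-1 summit also lies within 500 bp of the 5' end of zhp-2.

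The 4 MEG genes lie on X and had no pooled summit within 500 bp of the 5' end. A single weak candidate lay at meg-3 in replicate 4, at rank 18496 of 23600 and with a signal of 8.28. Of all X-linked coding genes 10.2% had a pooled summit, against 37.3% of autosomal ones. Most X-linked coding genes thus also lacked a pooled summit.

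Notch signalling in the stem cell niche was represented by 3 genes, of which sygl-1 was bound. SYGL-1 and LST-1 are the products of the niche's main Notch targets. At sygl-1 the optimal summit lay 14 bp downstream of the 5' end, in the 5' UTR, with a signal of 77.9 and rank 1201. In replicate 3 it was 10 bp upstream with a signal of 58.5 and rank 1172. In replicate 4 it was 23 bp downstream with a signal of 16.2 and rank 3586. Both replicates had a summit at the start, but in replicate 4 it was well outside the 1339 strongest. At lst-1 the best pooled summit ranked 7352, 186 bp upstream, and had no match in replicate 3. Its match in replicate 4 ranked 2533, with a signal of 18.5. No candidate summit of any list lay near the 5' end of glp-1, the Notch receptor gene.

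The strongest site among the stem cell and RNA regulators was at atx-2, which encodes the worm ataxin-2, an RNA-binding protein of the germline. The summit lay 47 bp upstream in the optimal list and in both replicates. Its signal was 129 and its rank 425 in the optimal list, with 93.7 and rank 453 in replicate 3 and 36.3 and rank 505 in replicate 4. No other bound member kept its position to the base in both replicates. In the optimal list the atx-2 peak was 157 bp wide, against a median of 440 bp. Its width was 135 bp in replicate 3 and 420 bp in replicate 4, the median of that last list. A further optimal summit, at rank 441 with a signal of 127, lay 645 bp upstream and was nearest to the 5' end of ecps-1.

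**Figure D2:**
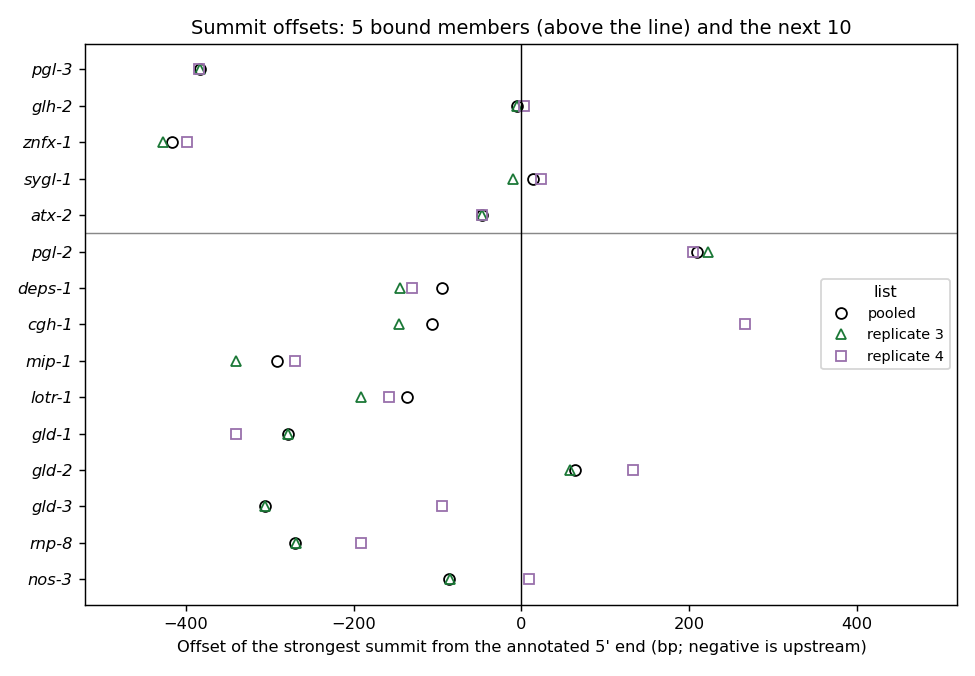
Offset in bp of the strongest summit from the annotated 5' end (negative is upstream) in the pooled list and in each replicate, for the 5 bound genes and the 10 genes whose best pooled summit ranked 1340 to 2678. The 3 lists fall within 33 bp of each other at each bound gene and lie further apart at several of the other 10, most of all at cgh-1.

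The genes around the cytoplasmic poly(A) polymerase GLD-2 lay close to one another in rank. GLD-2 has no RNA-binding domain of its own and acts with GLD-3 or RNP-8. Their best pooled summits ranked 1673 for gld-3, 2133 for rnp-8 and 2326 for gld-2, with signals of 64.6, 55.4 and 52.5. In replicate 3 the ranks were 970, 2401 and 2478. In replicate 4 rnp-8 and gld-2 had a matching summit at ranks 2151 and 1732, and gld-3 had none within 200 bp. Thus 3 of the 4 genes of this group ranked between 1340 and 2678 in the pooled list. The best pooled gld-3 summit was in fact nearest to the 5' end of T07F8.4, and the replicate 4 one to that of gld-3. The fourth, gld-4, for another germline poly(A) polymerase, had a candidate in replicate 3 alone, at rank 19020.

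Of the translational regulators and sex determination genes other than atx-2, none was bound. At gld-1, whose KH domain protein represses many germline mRNAs, the best pooled summit ranked 1824 with a signal of 60.9, 278 bp upstream. In replicate 4 the gld-1 site ranked 886, among the 1339 strongest, and in replicate 3 it ranked 2635. At daz-1, the worm relative of DAZ, a summit 223 bp upstream ranked 1177 in replicate 4, while neither replicate 3 nor the pooled list had one. These 2 genes were thus among the strongest sites of replicate 4 only. The sex determination genes fog-1, fog-2 and fog-3 had pooled summits at ranks 8872, 25502 and 21397, and etr-1 at 22577. No pooled summit lay near the 5' end of mex-3, which encodes a KH domain repressor, or of larp-1, for a La-related protein.

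Among the PUF and Nanos genes, whose products repress mRNAs in stem cells, none was bound. The best was nos-3 at rank 2550, with a signal of 49.8, in a window shared with the 5' end of Y53C12B.1. Those of puf-8 and nos-1 ranked 13464 and 28065. In replicate 4 a summit 89 bp downstream of the puf-8 5' end ranked higher, at 2608 with a signal of 18.3. There was no pooled summit at fbf-1, fbf-2 or nos-2. Of the 31-base words in the window 84.4% occurred once at fbf-1 and 87.0% at fbf-2, which are near copies of each other. The kinase and cell cycle genes all had weak candidates, at rank 6378 for the CDK inhibitor gene cki-2, 24217 for the RSK-type kinase gene rskn-1 and 25087 for the ERK gene mpk-1.

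Read deeper, the pooled list held far more of the 47 genes. The 1339 peaks after the optimal list, ranks 1340 to 2678, held the best summit of 10 members (21.3%), against 3.68% of all coding genes. For the 60 other genes of the same pathways, described below, the share was 13.3%. The 10 members were pgl-2, deps-1, cgh-1, mip-1 and lotr-1 among granule components and gld-1, gld-2, gld-3, rnp-8 and nos-3 among the regulators. Both replicates had a summit within 200 bp of the pooled one at each of these except cgh-1 and gld-3. In replicate 4 that summit was weak at pgl-2 (rank 6744), deps-1 (rank 8691) and nos-3 (rank 21111 of 23600, signal 7.69). At the others it ranked from 886 at gld-1 to 2151 at rnp-8. The deps-1 summit also lay within 500 bp of the 5' end of Y65B4BL.4, and was nearer to it than to deps-1 in both replicates. Down to rank 2678, 36.4% of granule genes, 28.0% of regulators and 7.55% of all coding genes had a summit. The stretch of the list was picked after the values were seen.

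In the whole pooled list of 30000 peaks, 33 of 47 genes had a summit (70.2%), against 33.6% of all coding genes. Of the 60 other genes of the same pathways, described below, 43 had one (71.7%). The excess over all coding genes at this depth was thus not particular to the 47 genes. Within the 47, the share was 16 of 22 granule components (72.7%) and 17 of 25 regulators (68.0%). The 2 classes were thus close at full depth, and granule components held their share higher up the list, with a median best rank of 2691 against 7352 for the regulators and 8763 for all coding genes with a summit. At rank 10000 the shares were 59.1% and 40.0%, against 18.2% of all genes. Of the 33 genes, 18 had a matching summit within 200 bp in both replicates, 10 of them granule components and 8 regulators. The like share over all coding genes was not counted, so these counts have no background. These candidate lists hold weak peaks, so a summit in them is not a bound gene in the sense used above.

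**Figure D3:**
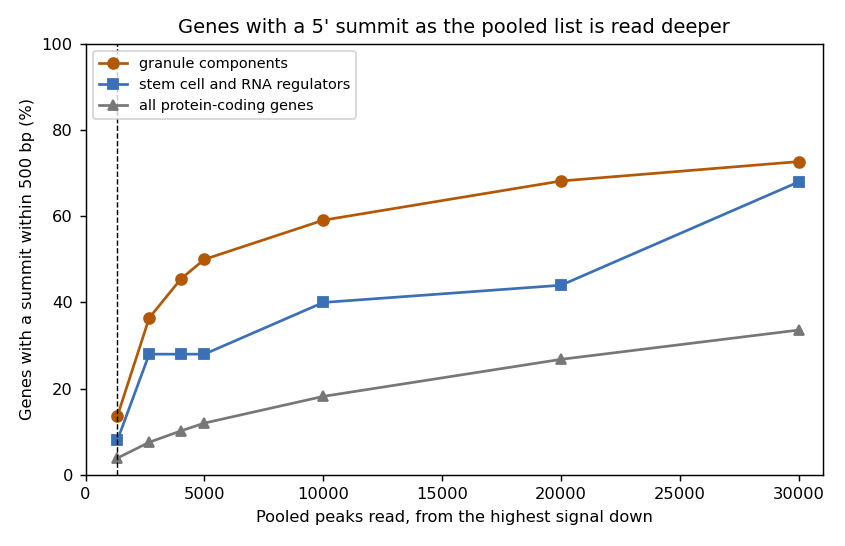
Percent of genes with a summit within 500 bp of the 5' end as pooled peaks are read from the highest signal down, for granule components, stem cell and RNA regulators and all protein-coding genes; the dashed line is the end of the optimal list. Granule components rise from 13.6% to 72.7% and regulators from 2 of 25 genes to 68.0%, and both stay above all genes, which reach 33.6%.

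The replicates' own lists gave like counts but not the same genes. The 1339 strongest peaks of replicate 3 lay at 7 members (14.9%, against 3.81% of all genes), which were the 5 bound genes with cgh-1 and gld-3. Those of replicate 4 lay at 5 (10.6%, against 3.95%), pgl-3, glh-2, atx-2, gld-1 and daz-1. Thus pgl-3, glh-2 and atx-2 were bound in the optimal list and among the strongest of both replicates, which held for 2.52% of all genes. In the whole lists 32 members (68.1%) had a summit in replicate 3 and 28 (59.6%) in replicate 4, against 34.0% and 28.9%. A summit in all 4 lists was found at 5 of the 47 members (10.6%), the bound ones, and at 765 of all coding genes (3.83%). As 772 coding genes were bound in the optimal list, this adds little to that call.

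No summit of any candidate list lay within 500 bp of the 5' end of 9 members (19.1%), against 54.4% of all coding genes. They were meg-1, meg-2, meg-4, pqn-75 and laf-1 among granule components and glp-1, fbf-1, mex-3 and larp-1 among regulators. Both larp-1 and mex-3 had an optimal peak further off. At larp-1 an optimal summit of rank 50, with a signal of 296, lay 634 bp upstream and was nearest to the 5' end of wip-1. At mex-3 one of rank 778, with a signal of 97.3, lay 1091 bp downstream of the 5' end, in an intron. It is within 500 bp of another of the 5 annotated transcript starts of mex-3, and the gene counts as bound where any of these is used. Upstream of car-1, whose product is an Lsm domain protein of granules and P bodies, an optimal summit lay 753 bp away and was nearest to the 5' end of coa-5. The bound gene closest to the limit was znfx-1, at 417 bp.

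Granule components also had optimal summits at the other end of the gene. Within 500 bp of the annotated 3' end there was an optimal summit at 8 of the 47 members, against 674 of all 19973 coding genes (3.37%). Of these 8, 7 are granule components (31.8% of 22), namely pgl-1, glh-1, deps-1, car-1, cgh-1, mip-2 and lotr-1, and 1 is a regulator, lst-1 (1 of 25). None of the 8 was bound at its 5' end. As 10.6% of the 47 members were bound there, 8 genes need not include one. The separation was not kept in the replicates' own lists. Among the strongest peaks of replicate 4 alone, glh-2 had a summit within 500 bp of each end. Among those of replicate 3 alone, cgh-1 and znfx-1 did. The same overlap was not counted over all coding genes. This count was made after the optimal summits near the 47 genes had been seen, and the difference between the 2 classes was not tested. Summits at 3' ends were not counted for the other genes of the same pathways. The 3' share is therefore not shown to be particular to granule components.

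**Figure D4:**
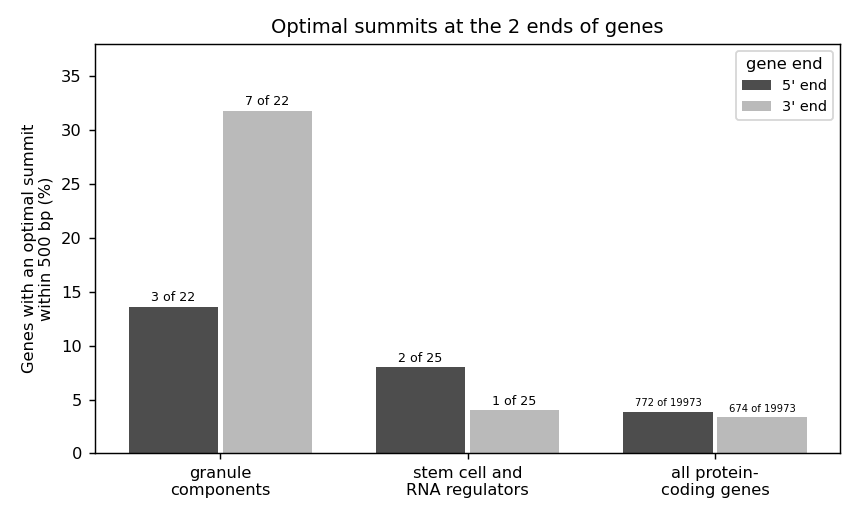
Percent of genes with an optimal summit within 500 bp of the 5' end (dark bars) and of the 3' end (light bars), with the number of genes above each bar. Granule components stand at 3 of 22 and 7 of 22, regulators at 2 of 25 and 1 of 25, and all protein-coding genes at 3.87% and 3.37%.

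The surroundings of these sites differed, and those at lotr-1 and lst-1 also lay near the start of the next gene. The lotr-1 site, at rank 1199, lies 36 bp past the 3' end and 317 bp upstream of cdc-5L. The lst-1 site, at rank 848, lies 73 bp inside the 3' end, in the 3' UTR, and 311 bp upstream of set-18. The other 6, all granule components, were within 500 bp of no coding 5' end, which held at 27.3% of the granule components. Taken over autosomes, that was 6 of the 43 member genes and 2.20% of all coding genes. No tRNA, snoRNA or snRNA gene lay within 250 bp of any of the 8.

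The strongest 3' site was at cgh-1, which encodes a DDX6-type helicase that protects maternal mRNAs. It lay 306 bp past the 3' end at rank 374, with a signal of 135. The ranks in replicates 3 and 4 were 303 and 968, with signals of 109 and 27.4. The summit, shown above with its sequence, lies 2 bp from the 5' end of the non-coding RNA gene C07H6.17 and 74 bp past the 3' end of another, C07H6.15. Whether the signal belongs to cgh-1 or to these non-coding genes cannot be told apart in the lists. At its own 5' end cgh-1 had a best pooled signal of 50.4.

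At glh-1 the 3' site lay 149 bp past the gene at rank 433, with a signal of 128. In replicate 3 it ranked 406 with a signal of 97.9, and in replicate 4 it ranked 555 with a signal of 34.6. It was thus among the strongest peaks of both replicates, as were the sites at cgh-1, mip-2 and lst-1. At mip-2 the summit lay 33 bp past the 3' end at rank 455, with a signal of 126. That gene ends tail to tail with rde-12, whose 3' end is 28 bp from the summit on the other side. The mip-2 site ranked 347 in replicate 3 and 651 in replicate 4.

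At pgl-1 the 3' site lay 171 bp past the gene at rank 679, with a signal of 103, and ranked 487 in replicate 3 and 2748 in replicate 4. At deps-1, for a P granule protein needed for normal granule assembly, it lay 107 bp past the gene at rank 1156, in the coding sequence of Y65B4BL.7 on the opposite strand. At car-1 it lay 45 bp inside the gene at rank 921, in the 3' UTR. The sites at pgl-1, deps-1 and car-1 were among the 1339 strongest of replicate 3 and not of replicate 4, and the lotr-1 site the reverse. A pseudogene ends 528 bp from the pgl-1 summit and another 467 bp from the car-1 summit.

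Other genes of the same pathways, from 5 lists, were counted in the same way at their 5' ends only. Of 60 such genes, 6 were bound in the optimal list, against 5 of the 47 genes and 3.87% of all coding genes. Of the 6, 5 were in the list of other PUF and Nanos-linked RNA-binding genes (5 of 11), most of which act in oocytes or early embryos. They were puf-3 with a signal of 177, puf-11 with 151, oma-1 with 106, oma-2 with 93.1 and spn-4 with 79.6. The sixth was ntl-11, a gene of the CCR4-NOT deadenylase complex, with a signal of 335 at rank 43, above every one of the 47. None of 13 other Notch pathway genes, 10 Ras-ERK pathway genes or 14 decapping and P body genes was bound, and 1 of 12 deadenylase genes was. At a share of 3.87% over all genes, lists this short need not hold a bound gene.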

How the data were processed

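Peak lists from ChIP-seq of tagged OEF-1 were analysed, 1 group of 2 samples. The authors deposited, on ce11, a candidate list for each replicate, a pooled candidate list and an optimal list of peaks kept as reproducible. Each peak in the deposited lists has the authors' signal value, whose scale is not stated. Aligner, peak caller and sequencing depth: not given in the sources used here; no interval could therefore be set on a signal. Both replicates shared 1 control alignment. The ce10 lists were not used.

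Summits were set against Ensembl release 115 annotation of WBcel235, the same assembly, with Python 3.11.15 and numpy 2.4.6. An annotated 5' end of a worm gene often marks a trans-splice site, downstream of the start of transcription. Summits of different lists were matched within 200 bp. Mitochondrial peaks counted in ranks. Each replicate's strongest 1339 peaks stood for that replicate alone. The member genes, role groups and other pathway lists were chosen with earlier results of these data known. Every member is accounted for, and other genes are named only where they share or neighbour a site or belong to a bound entry of the pathway lists and this last rule was widened to neighbours at 3' ends after their values were seen. Of the pathway names written, lsm-2 and puf-4 matched no gene. The calls were tested on simulated summits. No test was made, since there was 1 group.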

Additional observations from a re-analysis of the deposited data

How the results depend on the processing

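The 5 bound members stayed 5 to 7 when the most upstream start codon, any annotated transcript start, interval overlap, the nearest gene alone, 1000 bp or the removal of summits near small RNA genes was used. Leaving out 1 replicate gave 5 to 7 members, 2 to 4 granule components and 3 regulators, and without replicate 3, znfx-1 and sygl-1 were no longer among them. At 200 bp 3 members were bound, of which 1 was a granule component. Among the optimal peaks of above-median signal 3 members were bound, of which 1 was a regulator. The whole pooled list gave 33 members, 16 granule components and 17 regulators.

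Counts at 3' ends and after the optimal list were added after seeing the data. Without 1 replicate there were 6 to 8 members with a 3' summit, 5 to 7 granule components and 1 regulator. The genes changed. Without replicate 3, pgl-1, deps-1 and car-1 dropped out and glh-2 came in. Without replicate 4, lotr-1 dropped out and znfx-1 came in. Among the optimal peaks of above-median signal 3 members remained, all 3 granule components, and 0 regulators. Without summits near a coding 5' end there were 0 regulators. At 200 bp, 5 members had their best pooled summit at ranks 1340 to 2678 in place of 10. The summit offset of glh-2 was 3 bp without replicate 3 and -5 bp without replicate 4. That of sygl-1 was 23 bp without replicate 3, -10 bp without replicate 4 and -394 bp from the start codon. The read depth is unknown, so a member without a summit is not shown to be unbound. No paired analysis was possible because there was 1 group and no test.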
